A study of Homo sapiens with 6 samples.

Results

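The small subunit of the mitochondrial ribosome was described through 32 nuclear genes in SUM1315 cells kept in low oxygen. The genes were all protein-coding genes whose symbol is MRPS followed by a number, with DAP3, PTCD3 and AURKAIP1, out of 26425 genes to which transcripts of the deposited table were joined. Of these 32 genes, 29 encode proteins of the small subunit, 16 with a relative in the bacterial ribosome and 13 found only in mitochondria. MRPS18B, a paralog of S18 at a site of its own, was counted as mitochondria-specific. The other 3 carry an MRPS symbol but their products sit elsewhere: MRPS18A and MRPS30 in the large subunit, and MRPS36 in the oxoglutarate dehydrogenase complex. All 32 passed the filter on low values (more than 1 RPKM, reads per kilobase of transcript and per M reads, in at least 3 libraries).

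SUM1315 is an established human breast cancer line labelled as triple-negative and wild type, grown with serum, insulin and EGF. One group of 3 libraries came from cells held for 24 h in a sealed chamber with 1% oxygen (hypoxia), and the other group of 3 libraries from cells in 21% oxygen (normoxia). The labels do not say whether the libraries of a group are separate cultures; the p-values set differences against the spread among the 3 libraries only, and that spread may be technical. In bulk RNA, fewer cells carrying a transcript and less of it per cell cannot be told apart.

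Mitochondrial ribosomes make the proteins encoded in mitochondrial DNA, all of them subunits of the respiratory chain and ATP synthase. The small subunit binds the messenger RNA and decodes it. It is built on the 12S ribosomal RNA, which is transcribed from mitochondrial DNA, while its proteins are encoded in the nucleus, translated in the cytosol and imported. Its assembly therefore needs the products of both genomes, and its proteins are bound in an order that begins with those contacting the RNA directly.

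The labels were checked with genes known to respond to low oxygen. SLC16A3, SLC2A1, BNIP3 and VEGFA, which are known targets of the hypoxia-inducible factors, rose by log2 5.39, 2.88, 2.45 and 1.07, while CA9 stayed at 0.0639 RPKM or less in every library. As markers of the line, ESR1 and EPCAM were at 0.209 RPKM or less, ERBB2 lay between 20.2 and 23.7 RPKM in hypoxia and between 21.2 and 21.8 RPKM in normoxia, and VIM and CD44 were above 444 RPKM in every library. PTPRC, PECAM1 and ALB, markers of blood, endothelial and liver cells, were at 0.106 RPKM or less. Depth read from the steps of the values was 43.9 to 50.5 M reads in hypoxia and 50.2 to 50.7 M reads in normoxia. Among 11889 tested genes, 2900 fell and 1479 rose in hypoxia at an adjusted p under 0.05, with a median log2 fold change of -0.08.

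The promoters of the members shown here are those of the 3 MRPS18 genes, which encode related proteins, of PTCD3, which lies head to head with POLR1A, and of MRPS9 and MRPS33, which hold the palindromic motif of NRF1, a transcription factor known to act on nuclear genes for mitochondrial proteins. Each is the 250 bases before the RefSeq gene start, read 5′ to 3′ on the gene's strand, in build GRCh38.p14. The window lies at chr6:43687792-43688041 on the minus strand for MRPS18A, at chr6:30617590-30617839 on the plus strand for MRPS18B and at chr4:83455808-83456057 on the plus strand for MRPS18C. It lies at chr2:86105985-86106234 on the plus strand for PTCD3, at chr2:105037819-105038068 on the plus strand for MRPS9 and at chr7:141014953-141015202 on the minus strand for MRPS33. Capitals mark matches, on either strand, to the ETS core CGGAAG (also the core bound by the ETS factor GABPA) or to the NRF1 motif (GCGCA, any base, then GCGC).
MRPS18A: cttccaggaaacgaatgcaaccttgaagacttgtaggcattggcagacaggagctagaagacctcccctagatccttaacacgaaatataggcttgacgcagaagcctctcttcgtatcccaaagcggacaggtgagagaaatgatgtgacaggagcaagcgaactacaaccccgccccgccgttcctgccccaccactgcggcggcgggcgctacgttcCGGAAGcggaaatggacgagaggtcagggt
MRPS18B: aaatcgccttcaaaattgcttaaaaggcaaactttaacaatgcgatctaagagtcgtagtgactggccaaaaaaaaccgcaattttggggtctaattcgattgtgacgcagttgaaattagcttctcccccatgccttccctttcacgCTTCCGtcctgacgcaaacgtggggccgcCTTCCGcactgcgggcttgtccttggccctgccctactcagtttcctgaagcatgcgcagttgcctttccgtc
MRPS18C: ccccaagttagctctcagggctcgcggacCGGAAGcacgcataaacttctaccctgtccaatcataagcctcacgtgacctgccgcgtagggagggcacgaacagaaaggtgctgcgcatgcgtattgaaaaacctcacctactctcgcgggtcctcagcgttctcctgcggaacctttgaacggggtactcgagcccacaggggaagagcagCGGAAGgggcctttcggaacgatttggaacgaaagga
PTCD3: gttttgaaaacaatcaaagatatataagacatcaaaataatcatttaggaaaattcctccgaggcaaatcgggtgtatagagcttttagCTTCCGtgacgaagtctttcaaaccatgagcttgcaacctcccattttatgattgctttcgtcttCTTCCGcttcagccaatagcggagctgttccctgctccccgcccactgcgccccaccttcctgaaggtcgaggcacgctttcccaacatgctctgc
MRPS9: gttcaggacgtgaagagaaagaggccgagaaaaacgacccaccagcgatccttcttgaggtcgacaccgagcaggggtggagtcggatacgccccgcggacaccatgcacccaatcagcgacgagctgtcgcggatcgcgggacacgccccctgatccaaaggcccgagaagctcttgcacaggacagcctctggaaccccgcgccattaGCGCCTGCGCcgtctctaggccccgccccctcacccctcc
MRPS33: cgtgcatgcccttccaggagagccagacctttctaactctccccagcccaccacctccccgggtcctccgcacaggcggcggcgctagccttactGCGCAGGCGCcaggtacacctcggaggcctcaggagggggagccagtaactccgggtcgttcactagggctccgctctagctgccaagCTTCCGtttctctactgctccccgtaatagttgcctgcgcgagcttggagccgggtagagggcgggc

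The ETS core was present in 13 of the 31 promoters of members that were searched (41.9%), against 21.7% of 15843 promoters of protein-coding genes searched in the same way. Those 15843 were not limited to genes that passed the filter on low values, as all members did. It was present in 5 of 15 lowered members and in 8 of 16 others. All 3 MRPS18 promoters held it, once in MRPS18A and 2 times each in MRPS18B and MRPS18C. The NRF1 motif was found in MRPS9 and MRPS33 only, 6.45% of the members' promoters against 7.65% of all. The core of the hypoxia response element, ACGTG, was present in 8 members (25.8%, against 20.8% of all promoters) and its variant GCGTG in 15 (48.4%, against 39.2%). The E-box CACGTG, which contains ACGTG, was present in 2 members (6.45%, against 7.84%), and the YY1-type motif (AA, any base, ATGGC, any 2 bases, then C) in 1 (3.23%, against 2.05%). A match describes letters in this window and is not a measured binding site.

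The members were expressed over a wide range in both groups. The highest member was at 27.5 to 30.7 times the lowest in the hypoxia libraries and at 27.2 to 28.8 times in the normoxia libraries. Across the 32 genes the mean levels in both groups had a Spearman correlation of 0.98, given as a description since the genes share libraries. MRPS24, a relative of bacterial S3 at the entry of the messenger RNA channel, was the highest, with 148.0, 170.3 and 168.0 RPKM in hypoxia and 173.0, 172.8 and 171.0 RPKM in normoxia. AURKAIP1, a mitochondria-specific protein also known to bind Aurora A kinase, had 128.9, 160.9 and 159.2 RPKM in hypoxia and 161.3, 174.2 and 172.2 RPKM in normoxia. In both genes every hypoxia library lay below every normoxia library, the first by the most and the others by little. Neither passed the test, with log2 fold changes of -0.09 (adjusted p = 0.276) and -0.18 (adjusted p = 0.0998); AURKAIP1 passed it without hypoxia replicate 2 (adjusted p = 0.0491). MRPS22, a mitochondria-specific protein whose loss causes a mitochondrial disease, was the lowest, with 5.39, 6.20 and 5.96 RPKM in hypoxia and 6.32, 6.05 and 6.32 RPKM in normoxia. MRPS28, a relative of bacterial S1, had 6.73, 7.29 and 5.98 RPKM in hypoxia and 6.68, 8.63 and 8.35 RPKM in normoxia. Both overlapped between groups, and neither passed the test (adjusted p = 0.449 and 0.128). MRPS28 was called lowered in 2 alternative fits, among them that without normoxia replicate 1. MRPS36, given with the other genes outside the small subunit, was the third of the 3 lowest. The smallest estimate for a member in a library was 195 reads and the largest 8647 reads.

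**Figure D1:**
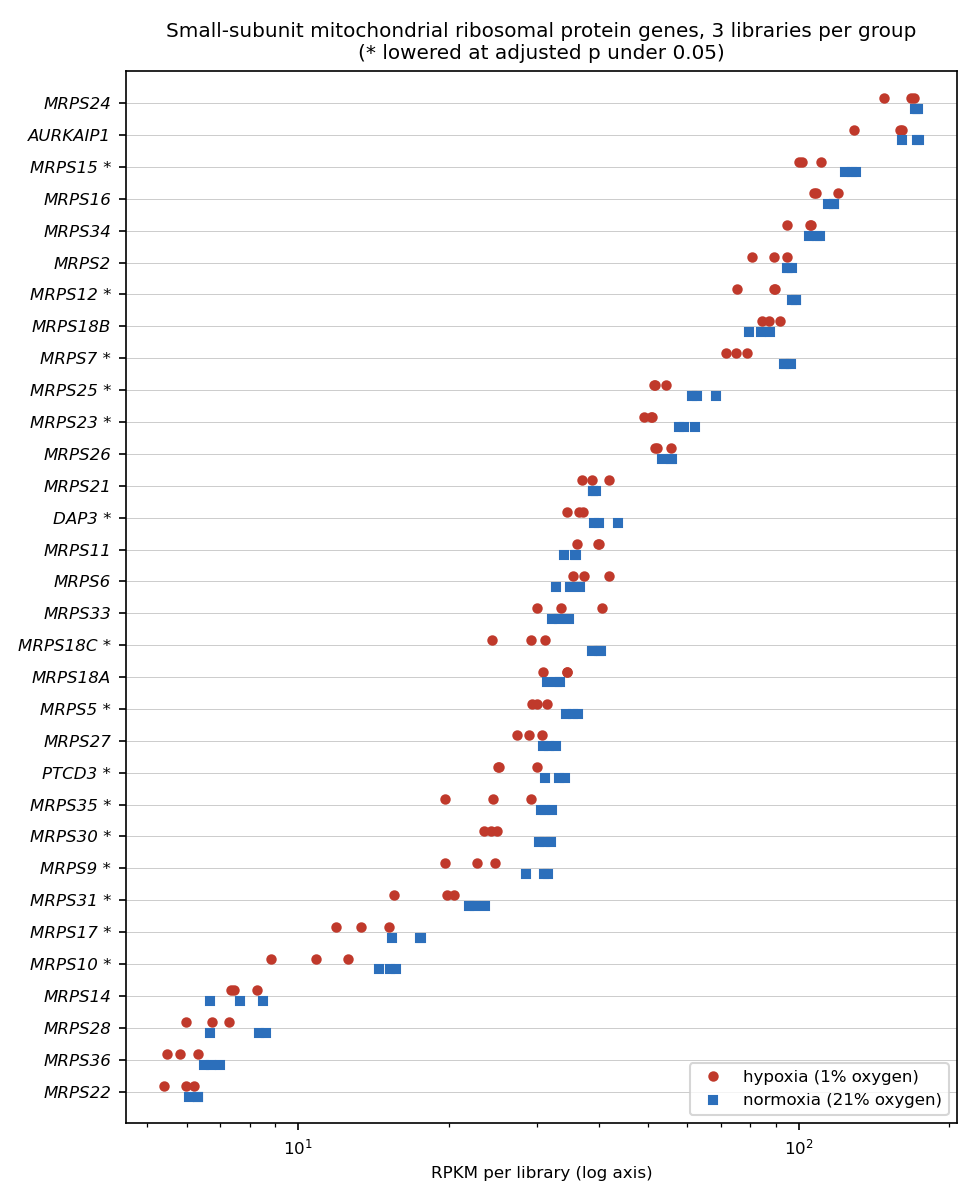
RPKM per library on a log axis for the 32 genes, ordered by mean level, with hypoxia (red circles) above normoxia (blue squares) in each line and an asterisk for genes lowered at an adjusted p under 0.05. In 20 of the 32 genes every hypoxia point lies left of every normoxia point, and only MRPS11 shows the opposite.

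In hypoxia, 15 of the 32 genes fell and 0 rose (limma on log2(RPKM + 1), Benjamini-Hochberg over all tested genes, threshold 0.05). That is 46.9% of the members lowered, where 24.4% of all tested genes were lowered and 12.4% were raised. The changes were small, from log2 -0.48 to 0.13, with a median of -0.18 beside -0.08 over all tested genes. The largest was a 1.40-fold lower RPKM + 1. All 3 hypoxia libraries lay below all 3 normoxia libraries in 20 members (62.5%, against 35.5% of all tested genes), of which 5 did not pass the test. They lay above in 1 member, MRPS11, against 16.4% of all tested genes. How libraries are scaled moved these counts: 7 members fell and 2, MRPS11 and MRPS6, rose after median-of-ratios scaling over the tested genes, while 21 fell after scaling to equal sums. The count was also 8 without normoxia replicate 3 and 7 with no filter on low values. The share of all tested genes lowered moved as well. It was 11.97% with median-of-ratios scaling over the tested genes, 35.5% with equal sums and 12.8% without normoxia replicate 3. With no filter the share was 5.17%, taken over 26425 genes that include those with low values. MRPS18C, MRPS30, MRPS7, MRPS15 and MRPS25 remained lowered under all 17 alternatives.

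**Figure D2:**
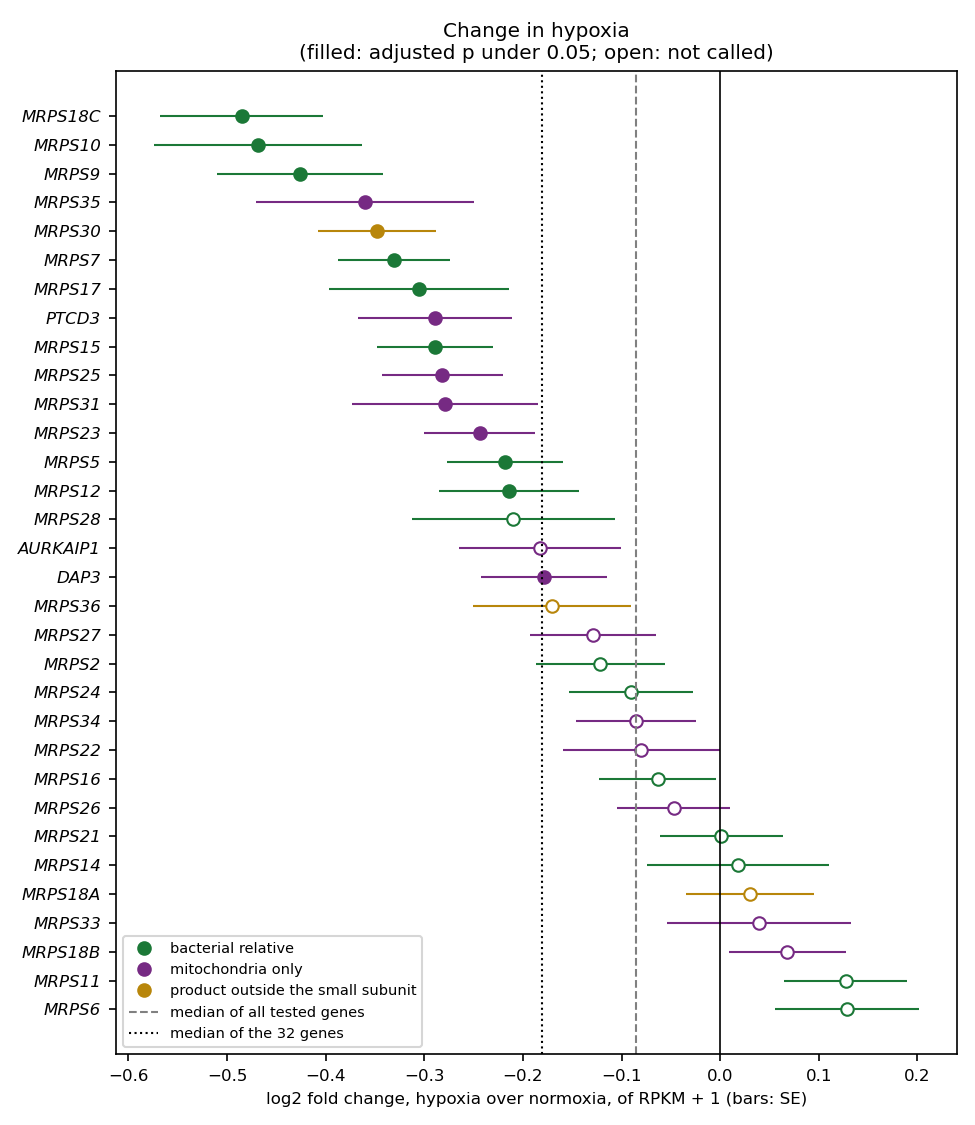
Log2 fold change of RPKM + 1, hypoxia over normoxia, with its SE for the 32 genes, coloured by the group of the protein; filled points passed an adjusted p under 0.05. The dotted line is the median of the members (-0.18) and the dashed line that of all tested genes (-0.08), and the filled points all lie at or below -0.18.

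Among the 16 proteins with a bacterial relative, 8 fell and 0 rose, with a median log2 fold change of -0.21 (5 fell without normoxia replicate 3, and MRPS11 rose without hypoxia replicate 1). Of all tested genes, 24.4% fell and 12.4% rose, and 12.8% fell without normoxia replicate 3. MRPS18C, the member of the S18 family that sits in the small subunit, had 29.2, 31.1 and 24.4 RPKM in hypoxia and 40.4, 38.8 and 40.0 RPKM in normoxia. Its groups were far apart, and it fell by 0.48 on the log2 scale (SE 0.08, adjusted p = 0.00165), the lowest value of the set. MRPS10, a protein of the head of the subunit, had 10.9, 12.6 and 8.82 RPKM in hypoxia and 15.7, 14.5 and 15.2 RPKM in normoxia. MRPS9, whose bacterial relative S9 reaches the transfer RNA in the decoding site, had 22.8, 24.8 and 19.7 RPKM in hypoxia and 31.6, 28.5 and 30.9 RPKM in normoxia. Both showed the third hypoxia library lowest and no overlap, with falls of 0.47 (SE 0.11, adjusted p = 0.00660) and 0.43 (SE 0.08, adjusted p = 0.00343).

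MRPS7, MRPS15 and MRPS17 have bacterial relatives that bind the ribosomal RNA directly and early in assembly. MRPS7 had 71.7, 79.1 and 74.9 RPKM in hypoxia and 94.3, 93.4 and 96.7 RPKM in normoxia, a fall of 0.33 (SE 0.06, adjusted p = 0.00177). MRPS15, the highest of the lowered members, had 100.1, 110.8 and 101.4 RPKM in hypoxia and 124, 130 and 128 RPKM in normoxia, a fall of 0.29 (SE 0.06, adjusted p = 0.00402). MRPS17 had 13.3, 15.2 and 11.9 RPKM in hypoxia and 15.4, 17.6 and 17.5 RPKM in normoxia, a fall of 0.31 (SE 0.09, adjusted p = 0.0236). In MRPS7 and MRPS15 the groups were well separated, while in MRPS17 the highest hypoxia library came close to the lowest normoxia library. MRPS5, whose bacterial relative S5 lies at the entry of the messenger RNA channel, had 29.96, 31.4 and 29.4 RPKM in hypoxia and 35.5, 34.4 and 36.2 RPKM in normoxia, a fall of 0.22 (SE 0.06, adjusted p = 0.0155). MRPS12, whose bacterial relative S12 is part of the decoding centre and the site of streptomycin resistance, had 75.4, 89.8 and 89.3 RPKM in hypoxia and 97.0, 99.0 and 98.6 RPKM in normoxia. It fell by 0.21 (SE 0.07, adjusted p = 0.0355), with the first hypoxia library well below the other two. MRPS12 lost its call in 8 of the 17 alternatives, among them leaving out hypoxia replicate 1 (adjusted p = 0.0525) or any 1 normoxia library (0.0829 to 0.108). MRPS17 lost it in 7, among them leaving out hypoxia replicate 1 or 3 (0.0574 and 0.0604) or normoxia replicate 2 or 3 (0.0888 and 0.0897). MRPS5 lost it in 5, among them leaving out normoxia replicate 1 or 3 (0.0658 and 0.0761).

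The 8 other members with a bacterial relative did not pass the test, and 4 of them had log2 fold changes of 0.00 or more. MRPS2 was at -0.12 (adjusted p = 0.160) and MRPS16, whose mutation causes a mitochondrial disease, at -0.06 (adjusted p = 0.420). MRPS2 was called lowered in 4 of the 17 alternatives, among them leaving out hypoxia replicate 3. MRPS21 was at 0.00 and MRPS14 at 0.02. MRPS6 and MRPS11, platform proteins by their bacterial relatives, had the highest values of the set. MRPS6 averaged 38.2 ± 3.25 RPKM in hypoxia and 34.8 ± 1.88 RPKM in normoxia (SD, n = 3 each), a log2 fold change of 0.13 (limma adjusted p = 0.183). In bacteria S6 and S18 bind as a pair, and here MRPS6 lay at 0.13 beside -0.48 for MRPS18C. That difference between genes was not tested, and the pair holds the highest and the lowest value of the set. Exons of MRPS6 also overlap SLC5A3 on the same strand, so reads there could belong to either gene.

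The 3 MRPS18 genes are paralogs, and MRPS18C alone was called lowered. MRPS18B, the most abundant, whose protein is a further part of the small subunit, had 87.3, 91.7 and 84.6 RPKM in hypoxia and 79.6, 84.0 and 87.7 RPKM in normoxia. MRPS18A, whose protein belongs to the large subunit, had 30.9, 34.5 and 34.5 RPKM in hypoxia and 33.4, 31.4 and 32.9 RPKM in normoxia. In both the groups overlapped and neither passed the test, with log2 fold changes of 0.07 (SE 0.06, adjusted p = 0.386) and 0.03 (SE 0.06, adjusted p = 0.738); that of MRPS18A turned to -0.04 with equal sums or without the length trend, and to -0.06 without the GC trend. The ratio of MRPS18C to MRPS18B, which does not depend on how libraries are scaled, was 0.334, 0.339 and 0.288 in hypoxia and 0.507, 0.461 and 0.456 in normoxia. The ratio of MRPS18C to MRPS18A was 0.945, 0.902 and 0.706 in hypoxia and 1.21, 1.23 and 1.22 in normoxia. In both ratios every hypoxia library was below every normoxia library, and the exact permutation test gave p = 0.1, two-sided, the smallest that 3 libraries against 3 allow. The transcripts of MRPS18C, MRPS18B and MRPS18A had 39.5%, 52.7% and 57.5% GC. Over all tested genes log2 fold change went with GC content, and no GC trend was removed from these ratios.

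Nearly all of the MRPS18C level came from a pair of protein-coding transcripts. The longer, ENST00000295491 (1643 bases), had 21.4, 22.3 and 16.9 RPKM in hypoxia and 24.6, 24.5 and 27.0 RPKM in normoxia. The shorter, ENST00000507019 (666 bases), had 7.28, 8.21 and 6.91 RPKM in hypoxia and 14.3, 13.3 and 12.2 RPKM in normoxia. Both were lower in every hypoxia library than in every normoxia library, and the shorter by the greater proportion; transcripts were not tested one by one, and how the authors' counting split reads between them sets these values. MRPS18C lies on chromosome 4 at chr4:83455932-83469735 (plus strand, GRCh38) and shares exon bases with ABRAXAS1 on the opposite strand, from which unstranded reads cannot be separated.

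Among the 13 mitochondria-specific proteins, 6 fell and 0 rose, with a median log2 fold change of -0.18 (2, 3 and 2 fell without normoxia replicate 1, 2 and 3). Of all tested genes, 24.4% fell and 12.4% rose, and 14.7%, 13.6% and 12.8% fell without normoxia replicate 1, 2 and 3. MRPS35 had 24.6, 29.2 and 19.7 RPKM in hypoxia and 30.5, 31.2 and 32.2 RPKM in normoxia, and fell by 0.36 (SE 0.11, adjusted p = 0.0265). MRPS31 had 19.8, 20.5 and 15.6 RPKM in hypoxia and 22.5, 21.9 and 23.6 RPKM in normoxia, and fell by 0.28 (SE 0.09, adjusted p = 0.0378). Both spread widely in hypoxia, where the third library was lowest, and both lost their call in 9 of the 17 alternatives. Leaving out any 1 normoxia library ended both calls, as did leaving out hypoxia replicate 1 for MRPS35 (adjusted p = 0.0645) and hypoxia replicate 3 for MRPS31 (adjusted p = 0.0657). MRPS25, mutated in a mitochondrial disease, had 51.7, 51.5 and 54.3 RPKM in hypoxia and 68.5, 62.6 and 61.2 RPKM in normoxia, and fell by 0.28 (SE 0.06, adjusted p = 0.00576). MRPS23 had 50.6, 50.9 and 49.2 RPKM in hypoxia and 57.7, 59.2 and 62.2 RPKM in normoxia, and fell by 0.24 (SE 0.06, adjusted p = 0.00749). In these 2 genes the hypoxia libraries were tight and clear of the normoxia ones.

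The 3 members without an MRPS symbol are mitochondria-specific. PTCD3, a pentatricopeptide repeat protein that associates with the 12S RNA, had 30.03, 25.05 and 25.2 RPKM in hypoxia and 33.3, 31.1 and 34.1 RPKM in normoxia, and fell by 0.29 (SE 0.08, adjusted p = 0.0152). DAP3, a GTP-binding protein first described as a mediator of cell death, had 34.5, 37.1 and 36.4 RPKM in hypoxia and 39.1, 39.9 and 43.7 RPKM in normoxia, and fell by 0.18 (SE 0.06, adjusted p = 0.0479). The groups did not overlap in either gene. PTCD3 lost its call without normoxia replicate 1 or 3 (adjusted p = 0.0537 and 0.0679). DAP3 lay next to the threshold and lost its call in 12 of the 17 alternatives, among them leaving out any library but hypoxia replicate 2 (adjusted p = 0.0535 to 0.212). MRPS27, another pentatricopeptide repeat protein, was at -0.13 (adjusted p = 0.129), and MRPS34, which is needed for a stable small subunit, at -0.08 (adjusted p = 0.289). MRPS26 was at -0.05, MRPS33 at 0.04 and MRPS18B at 0.07; the value for MRPS33 turned to -0.03 with equal sums and to -0.05 without the length trend, and that for MRPS26 to 0.04 with median-of-ratios scaling over tested genes. CHCHD1, a small-subunit protein that the symbol rule leaves out, had 35.4, 44.0 and 38.4 RPKM in hypoxia and 40.4, 42.4 and 40.6 RPKM in normoxia, with overlapping groups and a log2 fold change of -0.07 (adjusted p = 0.489).

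Of the 3 genes whose products sit outside the small subunit, MRPS30 alone fell. It had 23.6, 24.99 and 24.3 RPKM in hypoxia and 30.3, 31.1 and 32.1 RPKM in normoxia, a fall of 0.35 (SE 0.06, adjusted p = 0.00173) with tight, separate groups. MRPS36 had 5.81, 6.31 and 5.48 RPKM in hypoxia and 6.69, 6.48 and 6.999 RPKM in normoxia. Its groups did not overlap, yet its log2 fold change of -0.17 did not pass the test (SE 0.08, adjusted p = 0.112).

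Several members were carried mostly by transcripts that the annotation does not call protein-coding. These are transcripts that keep an intron, are marked for nonsense-mediated decay or lack an open reading frame. Their share of the summed RPKM was 88.7% to 90.4% in hypoxia and 87.7% to 87.9% in normoxia for MRPS11. It was 73.7% to 76.1% in hypoxia and 71.9% to 75.1% in normoxia for MRPS25, and 71.1% to 77.4% in hypoxia and 70.4% to 73.7% in normoxia for MRPS5. For PTCD3 it was 47.8% to 56.6% in hypoxia and 56.7% to 59.2% in normoxia. A sum of RPKM gives short transcripts more weight than a read count does.

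MRPS11 changed sign with this choice. Its summed level was 36.2, 39.9 and 39.8 RPKM in hypoxia and 34.0, 35.8 and 35.9 RPKM in normoxia, a log2 fold change of 0.13 that did not pass the test (adjusted p = 0.128) although the groups did not overlap. Its leading transcript, ENST00000558406, which retains an intron, had 17.5, 20.5 and 19.6 RPKM in hypoxia and 15.1, 15.7 and 16.8 RPKM in normoxia. The protein-coding transcripts of MRPS11 summed to 4.07, 3.83 and 3.98 RPKM in hypoxia and 4.16, 4.41 and 4.35 RPKM in normoxia, each hypoxia library being below each normoxia library. With protein-coding transcripts only, the log2 fold change was -0.10, and with the most abundant transcript only it was 0.26 (adjusted p = 0.0416). MRPS11 also rose without hypoxia replicate 1 (adjusted p = 0.0391).

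The calls of PTCD3, MRPS25 and MRPS5 were set beside those on coding transcripts alone. The coding transcripts of PTCD3 summed to 13.0, 13.1 and 11.0 RPKM in hypoxia and 14.2, 13.5 and 13.9 RPKM in normoxia, and its call was lost with them alone (log2 fold change -0.16, adjusted p = 0.132). Its non-coding transcript ENST00000465560 had 8.69, 4.45 and 5.48 RPKM in hypoxia and 10.0, 9.72 and 10.9 RPKM in normoxia. The coding transcripts of MRPS25 summed to 12.4, 13.5 and 13.2 RPKM in hypoxia and 17.4, 15.6 and 17.2 RPKM in normoxia, and those of MRPS5 to 7.48, 9.07 and 6.64 RPKM in hypoxia and 9.31, 10.2 and 9.90 RPKM in normoxia. Both genes were also lowered on coding transcripts alone, with log2 fold changes of -0.33 (adjusted p = 0.00553) and -0.31 (adjusted p = 0.0293). Over coding transcripts alone, 13 members fell and 0 rose, where 27.1% of all tested genes were lowered.

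**Figure D3:**
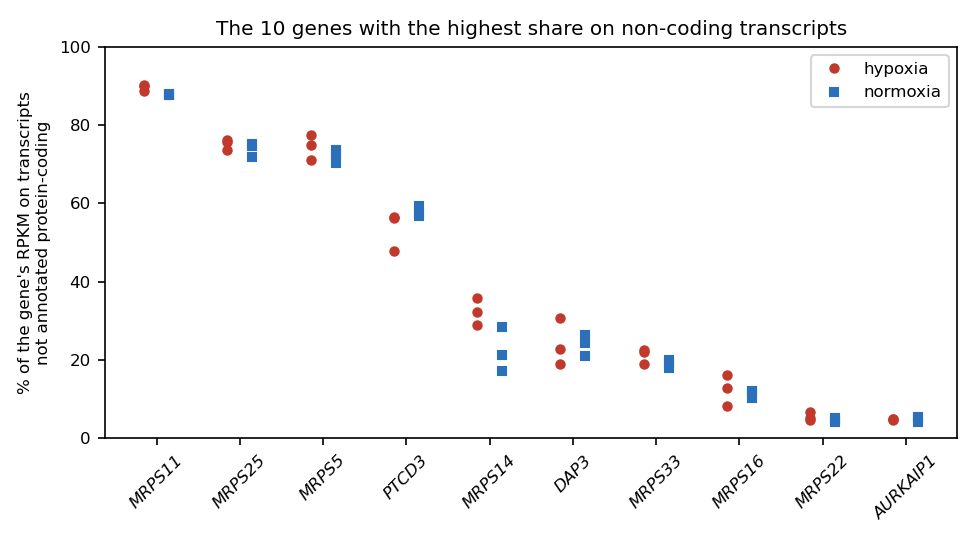
Share of each gene's RPKM, in percent, on transcripts not annotated as protein-coding, for the 10 members where it was highest, with hypoxia (red circles) left of normoxia (blue squares) and 1 point per library. In MRPS11 the share was above 87% in every library. In PTCD3 it was 56.6%, 47.8% and 56.3% in hypoxia and 57.2%, 56.7% and 59.2% in normoxia. Only hypoxia replicate 2 of PTCD3 lay well below the normoxia points.

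The summed level of the 29 small-subunit genes was 1453, 1604 and 1540 RPKM in hypoxia and 1682, 1712 and 1725 RPKM in normoxia. Each hypoxia library was below each normoxia library, and the hypoxia libraries differed more among themselves; the SD between libraries was larger in hypoxia in 25 of the 32 genes. The sum is weighted by the most abundant genes. The median level of the 32 genes did not separate the groups, with 34.0, 38.5 and 35.5 RPKM in hypoxia and 34.7, 35.4 and 36.4 RPKM in normoxia. The second hypoxia library was the highest of its group in 26 of the 32 genes. The first was lowest in 17 and the third in 13. The third also had the fewest reads, 43.9 M, and without it 13 members fell and 0 rose, where 23.0% of all tested genes fell.

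The large subunit was compared as the most closely related set. Of 49 MRPL genes, 25 fell (51.0%) and 2 rose, with a median log2 fold change of -0.20 beside -0.18 for the 32 genes (15 and 13 fell without normoxia replicate 2 and 3). Of all tested genes, 24.4% fell and 12.4% rose, and 13.6% and 12.8% fell without normoxia replicate 2 and 3. The summed level of the large subunit was 2497, 2809 and 2613 RPKM in hypoxia and 2897, 2966 and 3030 RPKM in normoxia. The small-to-large ratio was 0.582, 0.571 and 0.589 in hypoxia and 0.581, 0.577 and 0.569 in normoxia, so the groups overlapped. Its raised members were MRPL17 (log2 0.25, adjusted p = 0.0121) and MRPL10 (log2 0.23, adjusted p = 0.0206). MRPL10 lost its call without any 1 normoxia library and MRPL17 without normoxia replicate 3 (adjusted p = 0.0611). The difference between the subunits was not tested.

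The RNA of the small subunit rose, whereas 14 of its 29 messengers fell, beside 24.4% of all tested genes lowered and 12.4% raised. MT-RNR1, the 12S ribosomal RNA, had 229, 164 and 169 RPKM in hypoxia and 128, 103 and 101 RPKM in normoxia, and rose by log2 0.75 (SE 0.12, adjusted p = 0.00139), each hypoxia library being above each normoxia library; with no filter on low values its adjusted p was 0.0567. MT-RNR2, the 16S RNA of the large subunit, had 381, 301 and 266 RPKM in hypoxia and 282, 225 and 209 RPKM in normoxia, and rose by log2 0.40 (SE 0.13, adjusted p = 0.0329) although the groups overlapped; that call was lost without hypoxia replicate 1 (0.120), normoxia replicate 2 (0.0951) or normoxia replicate 3 (0.125). Relative to the summed messengers of the 29 small-subunit genes, MT-RNR1 was 0.158, 0.102 and 0.110 in hypoxia and 0.0763, 0.0602 and 0.0583 in normoxia. How RNA was selected for these libraries is not given in the sources used here, and these levels are what remained of the ribosomal RNA after library preparation.

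Of 9 factors that modify or assemble the small subunit, 2 fell (22.2%) and 2 rose, near the 24.4% lowered and 12.4% raised of all tested genes, with a median log2 fold change of -0.10. TFB1M, which methylates the 12S RNA, had 13.2, 13.8 and 13.7 RPKM in hypoxia and 11.2, 11.0 and 11.4 RPKM in normoxia, and rose by log2 0.25 (adjusted p = 0.0134). YBEY, an endoribonuclease of small-subunit maturation, rose by log2 0.26 (adjusted p = 0.0349). RBFA, an assembly factor that binds the 12S RNA, and METTL17 fell by 0.26 (adjusted p = 0.0183) and 0.18 (adjusted p = 0.0345). These 4 calls rest on the full set of libraries: without normoxia replicate 1 or 2, 0 of the 9 factors fell and 0 rose, and without normoxia replicate 3, 1 fell and 1 rose. Of 17 assembly factors of the large subunit, 11 fell and 0 rose, with 4 or 5 lowered without 1 of the normoxia libraries. Without 1 of these libraries, 12.8% to 14.7% of all tested genes were lowered.

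Other steps of mitochondrial gene expression were counted in the same way. Of 16 translation factors and release factors, 12 fell and 0 rose, with a median of -0.31 (6 fell without normoxia replicate 3). The lowest was GFM1, the elongation factor G of mitochondria, at -0.53 (adjusted p = 1.79e-04). Of 9 genes for transcription and RNA turnover, 6 fell and 0 rose, with a median of -0.45. TFAM, a factor that packages mitochondrial DNA and acts in its transcription, fell by 0.54 (adjusted p = 9.65e-04), and PNPT1, a polynucleotide phosphorylase, by 0.64 (adjusted p = 4.94e-04). These counts stand beside 24.4% of all tested genes lowered, or 12.8% without normoxia replicate 3. The median GC content was 45.1% for the translation list and 42.5% for the transcription list, beside 50.5% for all tested genes. Of all genes under 45% GC, 37.5% fell.

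Among 8 tested nuclear regulators of mitochondrial genes, 3 fell (37.5%) and 1 rose, beside 24.4% and 12.4% of all tested genes, so the counts differ little from that background. The coactivators PPARGC1B and PPRC1 fell by 0.51 (adjusted p = 0.00871) and 0.32 (adjusted p = 0.00602), and the receptor ESRRA by 0.25 (adjusted p = 0.0227; lost without hypoxia replicate 1 or any 1 normoxia library, 0.0521 to 0.0878). MXI1, an antagonist of MYC, had 5.43, 5.49 and 4.75 RPKM in hypoxia and 2.75, 2.54 and 2.05 RPKM in normoxia, and rose by log2 0.85 (adjusted p = 1.63e-04). MYC itself, NRF1 and GABPA did not pass the test, with log2 fold changes of -0.03, 0.03 and -0.07. PPARGC1A was at 0.0126 RPKM or less in every library.

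Of the members, 8 lie head to head with a tested protein-coding gene whose start is within 1000 bases on the opposite strand. MRPS11 starts 34 bases from MRPL46, a gene of the large subunit, which had 32.9, 34.3 and 33.3 RPKM in hypoxia and 37.4, 39.4 and 40.1 RPKM in normoxia. MRPL46 fell by 0.21 (adjusted p = 0.0163; 0.0762 and 0.0814 without normoxia replicate 2 and 3), while MRPS11 on the other side of the shared start region was at 0.13. PTCD3 starts 27 bases from POLR1A, the largest subunit of RNA polymerase I, which makes cytosolic ribosomal RNA. POLR1A had 12.5, 9.73 and 10.9 RPKM in hypoxia and 18.4, 18.2 and 16.8 RPKM in normoxia and fell by 0.65 (SE 0.09, adjusted p = 4.50e-04), against 0.29 for PTCD3. MRPS18C starts 76 bases from HELQ, a DNA helicase, which had 10.6, 8.52 and 10.4 RPKM in hypoxia and 8.47, 9.18 and 10.0 RPKM in normoxia, with overlapping groups and a log2 fold change of 0.08 (adjusted p = 0.526) that turned to -0.20 on coding transcripts alone. MRPS34 starts 52 bases from EME2, which was at 0.08 (adjusted p = 0.595) and turned to -0.13 without the GC trend.

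In the other 4 pairs the annotated genes overlap at their starts. In 3 of them, MRPS7, MRPS12 and MRPS27, the genes share exon bases whose unstranded reads cannot be assigned, while MRPS18B shares none with PPP1R10. GGA3, a sorting adaptor of the Golgi beside MRPS7, fell by 0.24 (adjusted p = 0.0264; 0.0675, 0.126 and 0.0697 without hypoxia replicate 2, normoxia replicate 1 and normoxia replicate 3), and PPP1R10, a phosphatase subunit beside MRPS18B, by 0.34 (adjusted p = 0.00363) while MRPS18B was at 0.07. SARS2, the mitochondrial seryl-tRNA synthetase beside MRPS12, was at -0.17 (adjusted p = 0.0650), and PTCD2, beside MRPS27, at -0.20 (adjusted p = 0.101). In 2 of the 8 pairs both genes fell: MRPS7 with GGA3 and PTCD3 with POLR1A. Of all tested genes, taken singly, 24.4% fell. The count of pairs was not tested, and MRPS7 and GGA3 are among the pairs that share exon bases.

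**Figure D4:**
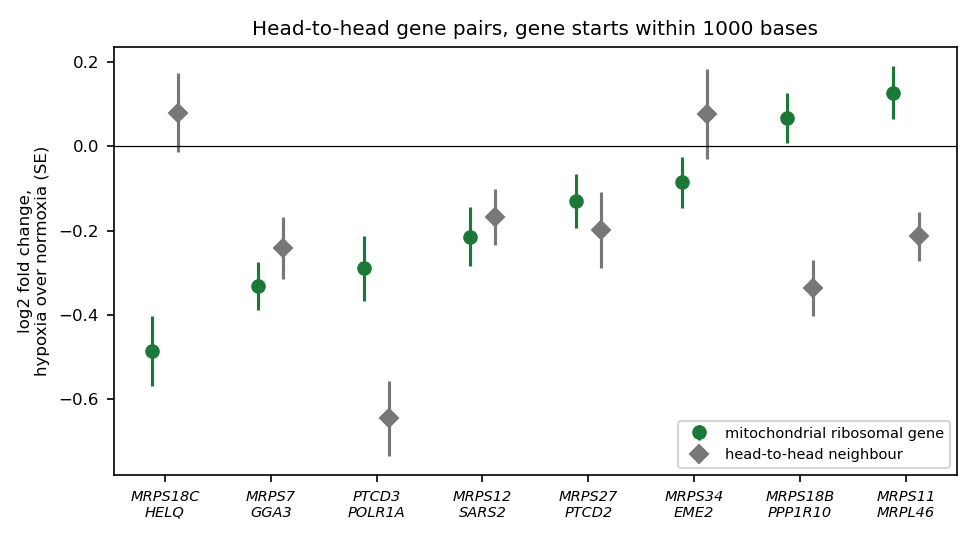
Log2 fold change, hypoxia over normoxia, with its SE for the 8 members (green circles) and the head-to-head neighbour of each (grey diamonds). MRPS18C (-0.48) lies below HELQ (0.08), while MRPS11 (0.13) lies above MRPL46 (-0.21) and MRPS18B (0.07) above PPP1R10 (-0.34).

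The change of a member went with the GC content of its transcripts, as it did over all genes. The Spearman correlation of log2 fold change with GC content was 0.35 over the 32 members and 0.42 over all tested genes, given as a description because genes share libraries. Of 10 members under 45% GC, 5 fell, beside 37.5% of all genes in that range. Of 14 members from 45% to 55% GC, 9 fell, beside 25.6% of all genes. Of 8 members at 55% GC or more, 1 fell, MRPS12, beside 12.4% of all genes. MRPS18C, MRPS31 and MRPS35 had 39.5%, 39.7% and 41.4% GC, and AURKAIP1, MRPS34 and MRPS26 had 66.5%, 64.7% and 63.4%. With the GC trend removed per library, 17 members fell and 0 rose, where 27.7% of all tested genes fell. The lowered members were not the same genes. The calls of MRPS31 (adjusted p = 0.124), MRPS35 (adjusted p = 0.0676) and DAP3 (adjusted p = 0.0695) were lost, and AURKAIP1, MRPS2, MRPS24, MRPS34 and MRPS26 were called lowered. The log2 fold change of MRPS18C was then -0.32 (adjusted p = 0.00136), against -0.48 without the removal. Log2 fold change also went with transcript length (Spearman -0.42 over the members, -0.23 over all genes), and with the length trend removed 21 fell and 0 rose.

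**Figure D5:**
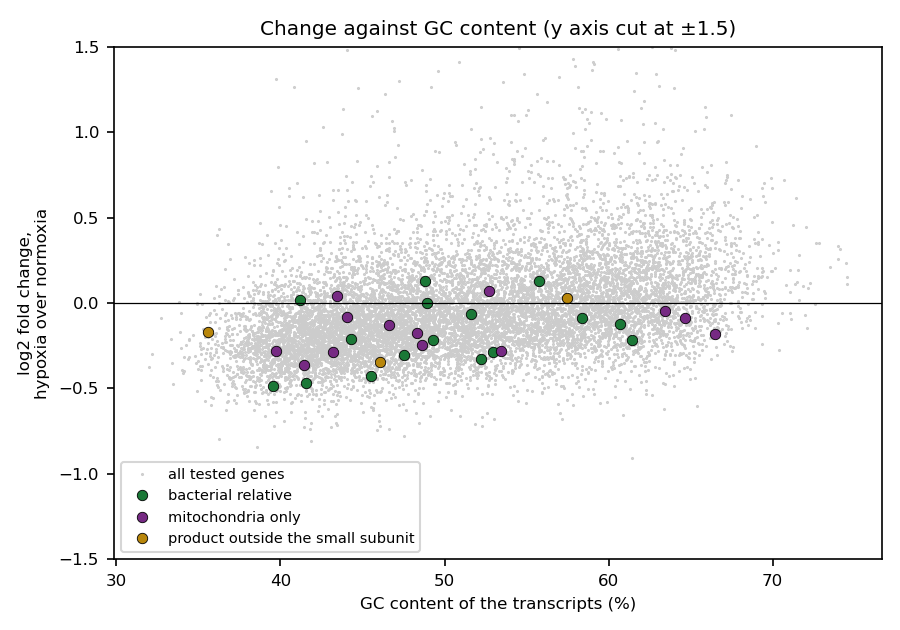
Log2 fold change, hypoxia over normoxia, against the GC content of each gene's transcripts in percent, for all tested genes (grey) and the 32 members (coloured by group of the protein). The members at 55% GC or more lie nearer to 0 or above it, and 1 of these 8 fell, against 5 of 10 under 45% GC and 9 of 14 from 45% to 55%.

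Some members share sequence with other genes, which limits how their reads could be assigned. The exons of 18 of the 32 genes overlap another annotated gene, among them 8 of the 15 lowered ones, and 14 do not; MRPS10, MRPS15, MRPS30 and PTCD3 are lowered genes without such overlap. The annotation holds 46 pseudogenes named after 17 of the members. The highest, MRPS31P5, averaged 1.35 RPKM, and it was the 1 pseudogene over 1 RPKM.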

How the data were processed

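RNA sequencing was analysed for 6 libraries of SUM1315 cells, 3 hypoxia and 3 normoxia. Per the labels' protocols, each library was made from 500 ng of total RNA; the named kit does not preserve strand. The submitters' processing notes list HISAT2, Partek, SAMtools and Trimmomatic, with builds GRCh38 and hg38 and no versions. Annotation release, strand setting and selection of RNA were not given in the sources. The deposited table holds RPKM of 165956 Ensembl transcripts. The unit was inferred from the values: 79.5% to 80.2% of low values of genes with 1 transcript lay within 0.1 of whole multiples, up to 20, of one step per library, which gave the depths. Most values are split estimates, so no count test was run.

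Of these, 140023 (84.4%) had an identifier in GENCODE 29, and their RPKM was summed per gene. The 25933 others hold 3.43% to 3.67% of the RPKM and were not used. For the members, 208 of 217 annotated transcripts were in the table. Genes above 1 RPKM in 3 libraries or more were fitted with limma on log2(RPKM + 1) with a mean-variance trend and Benjamini-Hochberg adjustment; a fold change on this scale understates that of low genes. Ratios within a library were compared with exact permutation tests.

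The members and lists were chosen with earlier results of these data known. Values by library are given for members that passed the test, the 3 highest and 3 lowest, the MRPS18 genes, MRPS30, MRPS36, DAP3, PTCD3 and AURKAIP1. Of other lists some genes are named, and these are not always the most changed called genes. Values of MRPS11, head-to-head neighbours and single transcripts were picked after they were seen. Promoters are from RefSeq, with the first listed window taken for each gene. Those on chromosome 8 were left out, for the members and for the comparison set. MRPS28 lies on that chromosome, so 31 of 32 members were searched.

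The fit was tested on data simulated for the hypoxia and normoxia libraries (11655 genes). It recovered 100% and 98% of 50 genes each changed by log2 1 and -1. Of 50 genes each changed by 0.5 and -0.5, it recovered 84% and 68%. Changes of the size seen here may be missed. In the simulation 4.89% of calls were false. It changed far fewer genes than were called in the data and drew noise for each gene separately. These shares therefore need not hold for the data. Alternatives were median-of-ratios scaling, equal library sums, no filter, a filter of 5 RPKM, a replicate block, a pseudocount of 0.1, coding transcripts or the most abundant transcript only, length or GC trends removed (loess, span 0.5) and each library left out. Median-of-ratios scaling over tested genes was chosen after seeing the data. Fits were made with limma 3.58.1 in R 4.3.3, and tables and plots with Python 3.11.15, pandas 2.3.3, numpy 2.4.6 and matplotlib 3.10.9.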

Additional observations from a re-analysis of the deposited data

How the results depend on the processing

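The count of lowered members, 15 of 32, was 9 with median-of-ratios scaling, 7 with that scaling over tested genes and 7 with no filter, where 26425 genes were tested. It was 8 to 16 with 1 library left out, lowest without normoxia replicate 3. The count of raised members, 0, was 2 with median-of-ratios scaling over tested genes, 1 with the most abundant transcript only (MRPS11) and 0 to 1 with 1 library left out (1 without hypoxia replicate 1). The members' median log2 fold change, -0.18, was -0.13 with median-of-ratios scaling, -0.10 with that over tested genes, -0.25 with equal sums and -0.24 without the length trend; with 1 library left out it was -0.23 to -0.14. The causes were not tested. Over all tested genes the median was -0.08, and -0.04, -0.01 and -0.14 with median-of-ratios scaling, that over tested genes and equal sums. Lowered and raised genes over the whole table were 2900 and 1479, against 1928 and 1739, 1422 and 2028, and 4217 and 1175 with these scalings, 1367 and 1069 with no filter and 1864 and 1010 with the most abundant transcript; lowered genes went down to 1523 without normoxia replicate 3. Large-subunit genes lowered were 13 to 29 with 1 library left out. Signs turned only in genes that were not called. With equal sums MRPS21 was at -0.066, MRPS14 at -0.043, MRPS18A at -0.037 and MRPS33 at -0.027. Without the length trend these 4 were at -0.048, -0.019, -0.041 and -0.049. Without the GC trend MRPS36 was at 0.044, MRPS22 at 0.0092, MRPS18A at -0.059 and EME2 at -0.13. With median-of-ratios scaling MRPS26 was at 0.0023. With that over tested genes MRPS26 was at 0.037, MRPS16 at 0.021 and CHCHD1 at 0.012. On coding transcripts MRPS14 was at -0.15, MRPS11 at -0.10, HELQ at -0.20 and EME2 at -0.044, and with the most abundant transcript MRPS16 was at 0.024 and MRPS14 at -0.15. With 1 library left out MRPS21 ranged from -0.046 to 0.042, MRPS14 from -0.062 to 0.092, MRPS33 from -0.075 to 0.13 and EME2 from -0.0045 to 0.18. Same-numbered libraries correlated at 0.089, 0.030 and -0.227 in their deviations from the group means, so the numbers were not taken as pairs; with the replicate block 15 members fell, AURKAIP1 in place of DAP3. MRPS28, MRPS36 and MRPS22 rest on the fewest reads.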
